A study of Mus musculus with 6 samples.

Results

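The Kruppel-like factors Klf2, Klf3, Klf4, Klf6, Klf10 and Klf13 are zinc finger transcription factors linked to lymphocyte trafficking and quiescence. Their mRNA was followed in group 1 innate lymphoid cells (ILC1) isolated from mouse liver, tissue-resident lymphocytes known for making interferon gamma. The members were the rows of the deposited count table whose symbol is on this list, and all 6 were found among its 24091 gene symbols. All 6 passed the filter on low counts. The AML group came from C57BL/6 mice that had received C1498 cells, an acute myeloid leukaemia line that grows in this strain, into a vein, and the healthy group came from C57BL/6 mice without leukaemia cells. Livers of both groups were taken at day 14. Each group has 3 libraries, called AML 1 to 3 and healthy 1 to 3 after the numbers in the labels. How the ILC1 were gated, whether a library is 1 animal or a pool, and the sex of the animals are not stated in the labels, and the p-values below take in no more than the differences among these 6 libraries, part of which may be technical.

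Kruppel-like factors bind GC-rich and CACCC elements through zinc fingers at their carboxyl end, and differ in the partners their amino ends recruit. KLF2 is known in mouse T cells for holding naive cells in quiescence and for switching on S1pr1, the receptor with which lymphocytes leave tissue. In tissue-resident lymphocytes that programme is known to be turned down. KLF4 restrains T cell proliferation and drives monocyte differentiation, KLF3 represses with the corepressor CtBP, KLF10 is an early target of TGF-beta, KLF13 is known in T cells for driving the chemokine gene Ccl5, and KLF6 is a widely expressed early response factor. Several of these genes are known to respond quickly when cells are stimulated.

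Total counts were 45135093 to 51284691 per library, and the members were covered by 381 reads (Klf4 in AML 3) to 60115 reads (Klf6 in healthy 3). The ILC1 markers were abundant, with Tbx21, the transcription factor T-bet, at 779 ± 39.6 CPM in AML and 697 ± 61.3 CPM in healthy libraries, and Itga1, which encodes CD49a, at 417 ± 41.3 and 378 ± 20.3 CPM (SD, n = 3 each). Eomes, the factor of conventional NK cells, was at 11.1 ± 5.62 CPM in AML and 7.62 ± 2.61 CPM in healthy libraries. Levels in CPM here are counts relative to library size, with sizes scaled by the TMM method. Endothelial cells are known for high KLF2 and KLF4, and the 10 liver endothelial markers summed to 1.52, 1.88 and 3.22 CPM in the AML libraries and to 0.729, 0.925 and 0.395 CPM in the healthy libraries, with Lyve1 at 0 in all 6 and Kdr and Cdh5 at 0 in AML 1 and in every healthy library. Stab2 was at 0.231 to 0.498 CPM in AML and 0.187 to 0.466 CPM in healthy libraries. The part of these cells in the values of Klf2 and Klf4 was not tested. AML 1 stood apart from AML 2 and AML 3 in the values of most members, and the members' results are therefore given with and without it.

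Levels per length are given in RPKM, which is CPM divided by the deposited length of each gene in kilobases. That length, 6.594 kb for Klf13, is not the span between start and end. By this measure Klf6 was the most abundant of the 6. It measured 284, 169 and 174 RPKM in AML 1, 2 and 3, against 253, 242 and 296 RPKM in healthy 1, 2 and 3, and lay above 98.2% of all tested genes by its mean. It made up 52.3 to 56.7% of the summed RPKM of the 6 genes in AML libraries and 56.8 to 61.0% in healthy libraries. Klf2 came next at 135, 43.4 and 64.7 RPKM in the AML and 65.8, 81.9 and 115 RPKM in the healthy libraries, followed by Klf13 at 43.5 ± 12.6 and 50.4 ± 2.15 RPKM and Klf10 at 39.9 ± 9.93 and 37.2 ± 3.05 RPKM (SD, n = 3 each). Klf3 and Klf4 were far lower, at 8.13 ± 1.45 and 3.98 ± 2.46 RPKM in AML libraries and at 6.58 ± 1.03 and 3.66 ± 0.133 RPKM in healthy libraries.

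The order of mean levels was Klf6, Klf2, Klf13, Klf10, Klf3, Klf4 in both groups. Each neighbouring pair stood in that order in all 6 libraries, except Klf13 and Klf10, where it held in 5 of 6. The ranges over libraries did not overlap between Klf6 and Klf2 or between Klf10 and Klf3, and they did overlap between Klf2 and Klf13, between Klf13 and Klf10 and between Klf3 and Klf4. The mean of Klf10 was 5.24-fold that of Klf3, the widest step of the order.

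**Figure D1:**
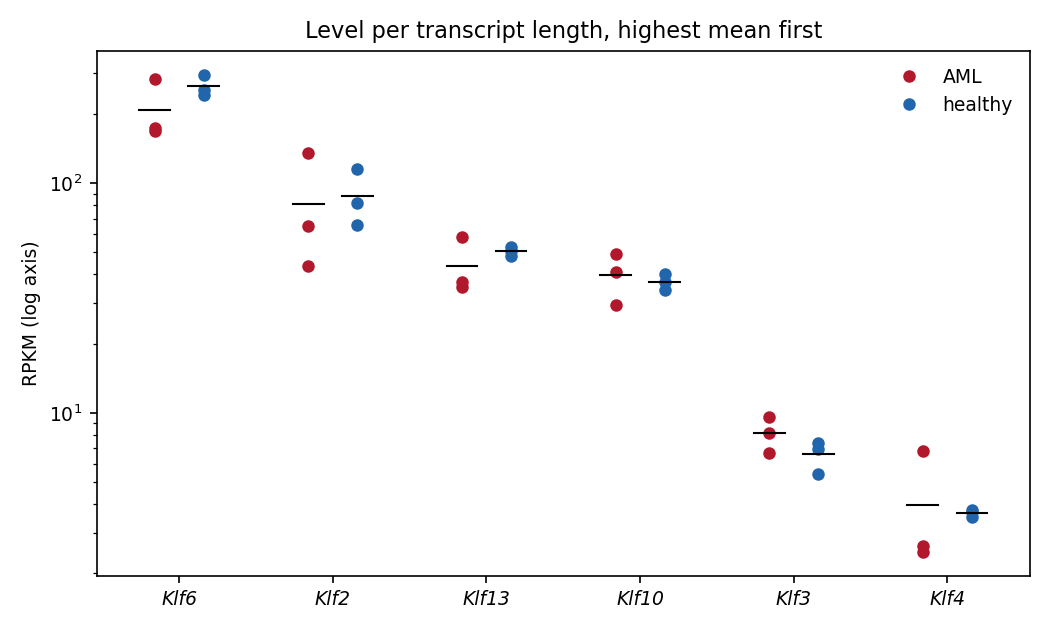
RPKM of each Kruppel-like factor on a log axis, with each AML library in red on the left, each healthy library in blue on the right and the group means as black lines. Klf6 ranges from 169 to 296 RPKM and lies above the other genes in every library, while Klf3 and Klf4 lie below 10 RPKM.

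AML against healthy libraries is the comparison the study made, to find regulatory pathways of ILC1 in leukaemia. No Kruppel-like factor passed an adjusted p of 0.05 in edgeR's quasi-likelihood test, as was so for all genes, where 0 of 12469 (0%) passed. By the same test 1102 of all genes (8.84%) had an unadjusted p below 0.05, and none of the 6 members did. DESeq2 passed 143 of all genes (1.15%) and limma-voom 0, again without a member. AML and healthy libraries overlapped for every member, while 15.5% of all genes had groups that did not overlap, 8.20% with every AML library above and 7.34% with every AML library below the healthy ones. Of the 6 members 3 had a log2 fold change under 0, as did 48% of all genes. As the data are bulk RNA, fewer cells of a type and less RNA per cell cannot be told apart in any of these values.

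Klf2 measured 245, 78.8 and 117 CPM in AML 1, 2 and 3, against 119, 149 and 209 CPM in healthy 1, 2 and 3. AML 1 was the highest of the 6 libraries, while AML 2 and AML 3 were the lowest. AML 3 and healthy 1 were nearly level, at 117 and 119 CPM. By plain library totals, without TMM scaling, AML 3 lay above healthy 1, at 5578 of 45135093 against 5888 of 50366362 reads. The log2 fold change was -0.11 ± 0.40 (SE) with a 95% interval of -1.03 to 0.81 and an edgeR adjusted p of 0.940. The interval is the widest of the 6 members.

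Klf4, which restrains proliferation, had the same layout. It stood at 20.7, 7.54 and 8.01 CPM in AML 1, 2 and 3, against 10.7, 11.2 and 11.4 CPM in healthy 1, 2 and 3. The healthy libraries lay within 1.07-fold of each other and the AML libraries spanned 2.74-fold. Its log2 fold change was 0.12 ± 0.38 (SE), with a 95% interval of -0.76 to 1.00 and an adjusted p of 0.933.

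Klf6, the early response member, measured 1194, 711 and 734 CPM in AML 1, 2 and 3, against 1066, 1019.7 and 1249 CPM in the healthy libraries. AML 2 and AML 3 lay below every healthy library and AML 1 lay within their range. The log2 fold change was -0.34 ± 0.20 (SE), with a 95% interval of -0.80 to 0.13 and an adjusted p of 0.633.

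Klf13, the factor known for driving Ccl5, was at 382, 233 and 244 CPM in AML 1, 2 and 3, against 318, 346 and 333 CPM in the healthy libraries. Here too AML 1 was above, and AML 2 and AML 3 were below, all healthy libraries. The log2 fold change was -0.21 ± 0.18 (SE), with a 95% interval of -0.63 to 0.20 and an adjusted p of 0.711.

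The TGF-beta early gene Klf10 measured 188, 156 and 112 CPM in AML 1, 2 and 3, against 142, 154 and 130 CPM in the healthy libraries, with a log2 fold change of 0.10 ± 0.17 (SE) and a 95% interval of -0.30 to 0.50 (adjusted p = 0.862). AML 1 was again the highest library, but AML 2 lay above every healthy library and AML 3 below every one. Klf3, which represses with CtBP, stood at 49.2, 34.2 and 42.0 CPM in AML 1, 2 and 3, against 35.7, 27.9 and 37.9 CPM in the healthy libraries. It had the highest fold change of the 6, a log2 value of 0.30 ± 0.16 (SE) with a 95% interval of -0.08 to 0.69 and an adjusted p of 0.606. AML 1 and AML 3 were above all healthy libraries and AML 2 was within their range.

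**Figure D2:**
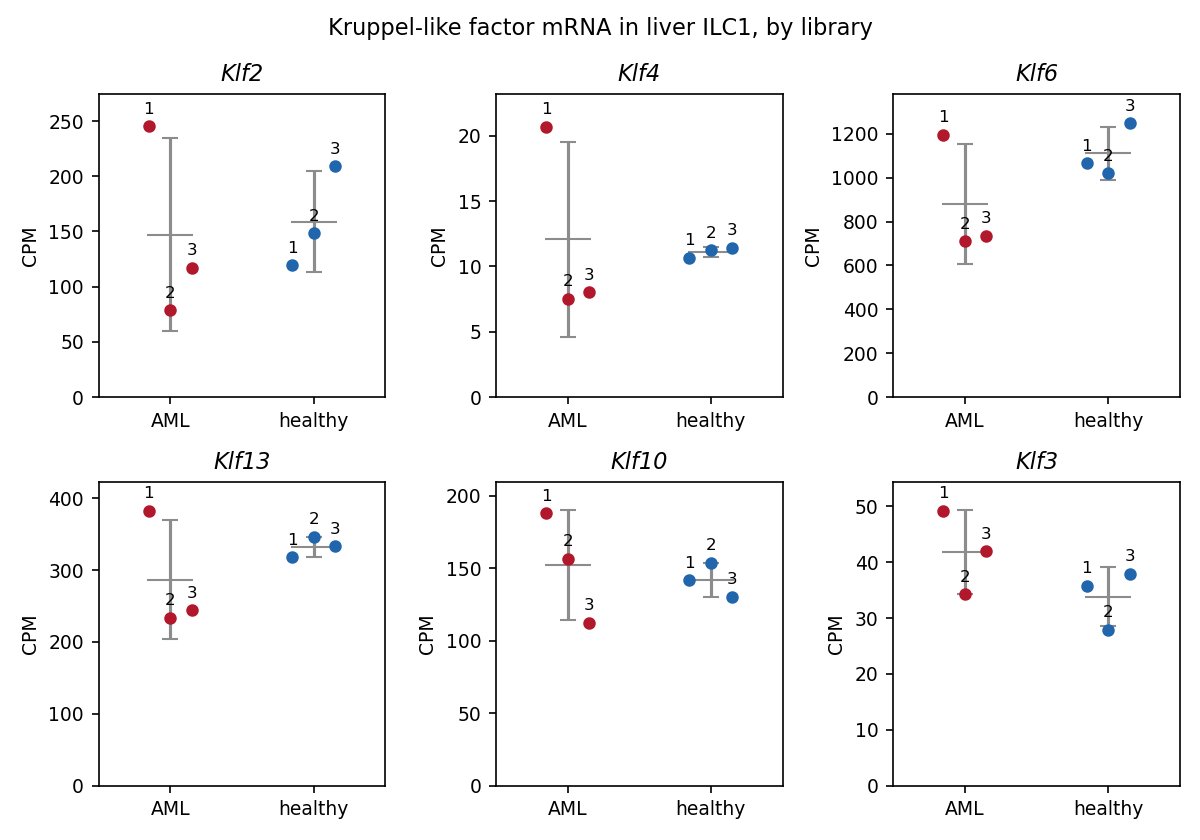
CPM of each Kruppel-like factor by library, AML in red on the left and healthy in blue on the right, with the replicate number beside each point and grey bars for the mean and SD of 3 libraries. AML 1 is the highest point for every gene except Klf6, and AML 2 and AML 3 lie below every healthy library for Klf2, Klf4, Klf6 and Klf13.

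For 5 of the 6 genes AML 1 was the highest of all libraries, as it was for 19.9% of all tested genes. For 4 of the 6, Klf2, Klf4, Klf6 and Klf13, AML 2 and AML 3 were both below every healthy library, as they were for 17.6% of all tested genes. For Klf2 this rested on 117 CPM in AML 3 against 119 CPM in healthy 1, and did not hold without TMM scaling. These patterns were noticed in the data and are given as a description. Within the AML group the coefficient of variation was 59.3% for Klf2, 61.8% for Klf4, 31.0% for Klf6 and 29.0% for Klf13, where the median of all tested genes was 12.3%. Within the healthy group the same genes varied by 28.9, 3.65, 10.9 and 4.26%, where the median of all tested genes was 10.8%. With 1 CPM added to each level, AML 1 exceeded the mean of the other AML libraries 2.49-fold for Klf2 and 2.47-fold for Klf4. The ratio was 1.65-fold for Klf6 and 1.60-fold for Klf13, and less for Klf10 at 1.39-fold and Klf3 at 1.28-fold. The added 1 CPM lowers the ratio most for Klf4, the member with the lowest CPM.

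The comparison without AML 1 gave lower values for these 4 genes, as it must where AML 1 was the highest AML library. AML 1 was singled out after its values were seen, so p-values of fits without it describe the layout and are no independent support. In the fit without AML 1, Klf6 passed at a log2 fold change of -0.62 ± 0.10 (SE) and an edgeR adjusted p of 0.0409, and Klf13 at -0.48 ± 0.08 and 0.0410. Of all genes 147 (1.15%) passed in that fit, 24 of them higher and 123 lower (0.964%) in AML. Klf2 had a log2 fold change of -0.70 ± 0.25 and Klf4 of -0.52 ± 0.17, which did not pass, at adjusted p-values of 0.254 and 0.223. For Klf10 and Klf3 the values were -0.08 ± 0.14 and 0.17 ± 0.16 (adjusted p = 0.849 and 0.662). Without AML 1, 5 of the 6 were under 0, against 48% of all genes. The median over the 6 genes was -0.50 without AML 1 and -0.01 with it, where the median over all tested genes was 0.01 in both fits.

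Without AML 1 and healthy 1 together, Klf6 and Klf13 passed at adjusted p-values of 0.0145 and 0.0162, with log2 fold changes of -0.65 ± 0.11 and -0.51 ± 0.09 (SE). In this fit of 2 against 2 libraries 444 of all genes (3.54%) passed, of which 219 (1.74%) were lower. Klf2 stood at -0.87 ± 0.20 and an adjusted p of 0.0588. In the same fit 8 of the 9 monocyte markers passed as higher and 1, Cebpb, as lower, and the 9 had a median of 2.91 in log2, while 4 of the 8 tested Kupffer cell markers passed as higher. The part of these cells in the values of Klf6 and Klf13 was not tested. Leaving out any other single library passed no Kruppel-like factor.

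**Figure D3:**
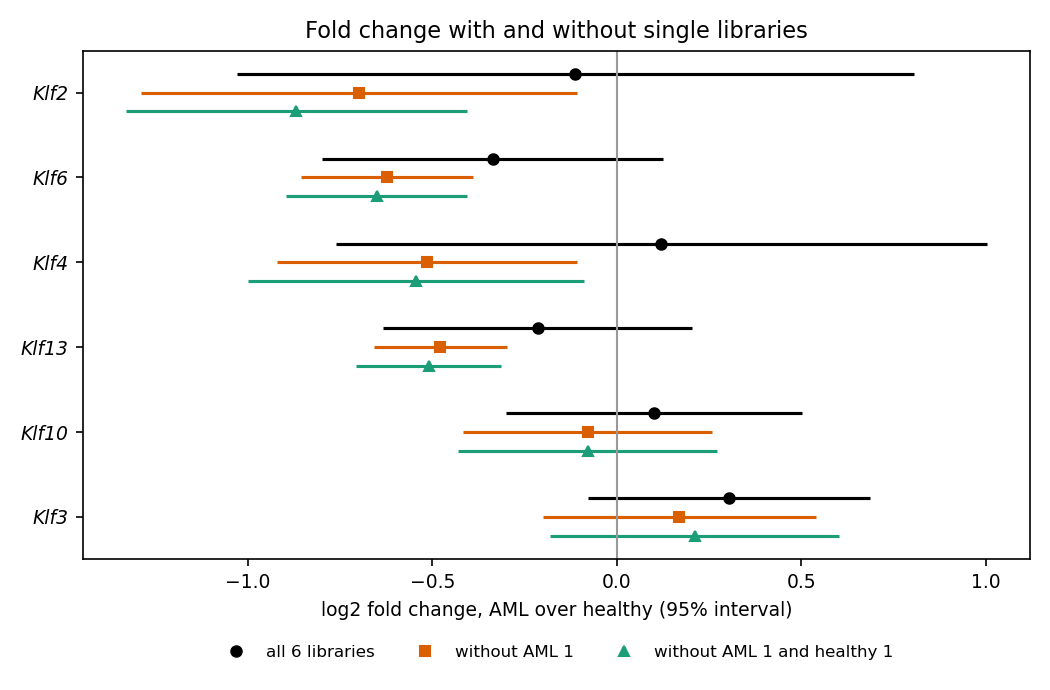
Log2 fold change of AML over healthy libraries with its 95% interval, for all 6 libraries (black), without AML 1 (orange) and without AML 1 and healthy 1 (green). The intervals of Klf2, Klf4, Klf6 and Klf13 include 0 with all libraries and lie below 0 without AML 1, while those of Klf10 and Klf3 include 0 in each fit shown here.

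Markers of other cells differed between AML 1 and the other AML libraries as well. The 8 neutrophil markers, none of them at 0 in all libraries, summed to 148, 13.2 and 17.1 CPM in AML 1, 2 and 3 and to 15.8, 0.583 and 6.34 CPM in healthy 1, 2 and 3. Ngp and Camp, granule genes of immature neutrophils, stood at 44.3 and 11.2 CPM in AML 1, at 0 to 0.0210 CPM in AML 2 and AML 3 and at 0 to 0.0810 CPM in healthy libraries, and S100a8 at 36.0, 0.900 and 2.75 CPM in the AML and 2.35, 0.302 and 2.62 CPM in the healthy libraries. The 9 Kupffer cell markers summed to 43.2, 59.7 and 121 CPM in the AML and 13.1, 18.8 and 17.3 CPM in the healthy libraries. The 9 monocyte markers summed to 1393, 1133 and 990 CPM in the AML and to 1393, 732 and 538 CPM in the healthy libraries. Cebpb, a myeloid transcription factor gene, made up much of this sum, at 572, 328 and 311 CPM in AML 1, 2 and 3, against 716, 667 and 480 CPM in healthy 1, 2 and 3. The other 8 monocyte markers summed to 821, 805 and 678 CPM in the AML and to 677, 65.2 and 57.7 CPM in the healthy libraries, so that healthy 1 lay near the AML libraries and healthy 2 and healthy 3 far below. C1qa, a complement gene of Kupffer cells, was at 7.76 to 21.4 CPM in AML and 0.648 to 4.28 CPM in healthy libraries, Clec4f at 0.513 to 3.53 and 0.324 to 4.10 CPM, and the lysozyme gene Lyz2 at 434 to 567 and 33.1 to 459 CPM. The 10 T cell markers summed to 1111, 1446 and 1379.5 CPM in the AML and to 1768, 1609 and 1475 CPM in the healthy libraries, most of it Cd3g, at 951, 1293 and 1176 CPM in the AML and 1646, 1459 and 1317 CPM in the healthy libraries. The other 9 T cell markers summed to 160.0, 153 and 204 CPM in the AML and to 122, 149.96 and 158 CPM in the healthy libraries. By log2 fold change Cd3g was at -0.37 ± 0.13 (SE) and Cd3e at 0.38 ± 0.58, with adjusted p-values of 0.495 and 0.839. Cd3e averaged 21.9 ± 16.8 CPM in AML and 16.8 ± 5.83 CPM in healthy libraries (SD, n = 3 each). The 9 ILC1 markers summed to 5542 to 6262 CPM in AML and 5852 to 6058 CPM in healthy libraries, the 10 NK cell markers to 396 to 528 and 438 to 502 CPM, with Klra4 at 0 in all. The 7 B cell markers summed to 8.58 to 11.3 and 6.73 to 11.7 CPM, with Pax5 at 0 in all and Cd79a at no more than 0.479 CPM, and the 8 hepatocyte markers to 1.05 to 1.55 and 1.15 to 4.32 CPM, with Tat and Cps1 at 0 in all and Alb at 0.0841 to 0.727 and 0.507 to 3.14 CPM. The part of these cells in the Kruppel-like factor values was not tested.

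The promoters of Klf2, Klf4, Klf6 and Klf13 are shown because these members shared the layout with AML 2 and AML 3 below the healthy libraries. The windows run from 250 bases before to 50 bases from the annotated start (RefSeq, GRCm38.p6, which is mm10), and 5 of the 6 genes matched the table. Klf2 lies on the plus strand at chr8:72318812-72319111, Klf4 on the minus strand at chr4:55532426-55532725, Klf6 on the plus strand at chr13:5861239-5861538 and Klf13 on the minus strand at chr7:63938866-63939165. Capitals mark 3 motifs on either strand, the GC box CCCCGCCC, the CCAAT box and TGACG, the core of cyclic AMP response elements.
Klf2: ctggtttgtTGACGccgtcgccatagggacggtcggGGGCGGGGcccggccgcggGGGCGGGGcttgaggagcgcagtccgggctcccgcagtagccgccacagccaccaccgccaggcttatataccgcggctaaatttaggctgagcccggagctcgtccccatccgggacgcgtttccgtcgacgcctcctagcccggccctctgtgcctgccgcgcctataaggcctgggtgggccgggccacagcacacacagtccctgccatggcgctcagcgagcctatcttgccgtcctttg
Klf4: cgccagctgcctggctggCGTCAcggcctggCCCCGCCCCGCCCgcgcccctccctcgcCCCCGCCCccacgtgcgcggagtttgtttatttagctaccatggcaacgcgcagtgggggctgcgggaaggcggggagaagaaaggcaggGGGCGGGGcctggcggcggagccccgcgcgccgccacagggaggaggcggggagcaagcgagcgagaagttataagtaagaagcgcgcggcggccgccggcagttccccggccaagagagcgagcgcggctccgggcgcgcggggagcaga
Klf6: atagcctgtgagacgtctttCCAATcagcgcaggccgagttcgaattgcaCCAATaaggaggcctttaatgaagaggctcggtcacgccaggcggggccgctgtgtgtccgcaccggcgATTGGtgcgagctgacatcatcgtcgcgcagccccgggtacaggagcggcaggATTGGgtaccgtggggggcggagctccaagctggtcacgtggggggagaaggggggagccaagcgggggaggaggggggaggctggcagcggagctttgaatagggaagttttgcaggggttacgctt
Klf13: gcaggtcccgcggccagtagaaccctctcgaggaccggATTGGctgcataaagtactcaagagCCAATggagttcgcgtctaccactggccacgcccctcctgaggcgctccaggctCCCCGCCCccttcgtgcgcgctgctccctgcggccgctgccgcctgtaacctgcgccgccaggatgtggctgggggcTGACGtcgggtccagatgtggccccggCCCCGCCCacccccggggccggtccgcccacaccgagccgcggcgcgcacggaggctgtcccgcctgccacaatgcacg

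The GC box, counted as the exact sequence CCCCGCCC on either strand, was found 2 times in the Klf2 window and 4 times in Klf4. Klf13 had 2 and Klf6 had 0, and 17.6% of 32851 promoter windows hold it at least once. Variants of the GC box were not counted. Klf6 had 4 CCAAT boxes and Klf13 had 2, against 37.4% of windows with 1 or more. TGACG occurred 1 time each in Klf2, Klf4 and Klf13, and in 20.8% of windows. Klf3, whose window is not printed, had 4 GC boxes, 0 CCAAT boxes and 1 TGACG. In Klf4 2 of the GC boxes overlap each other, and the other matches do not overlap. None of the 3 motifs was in all 4 windows.

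None of the receptors that KLF2 is known to control passed the test. S1pr1, the receptor for tissue exit, was at 2.54, 0.957 and 0.526 CPM in AML 1, 2 and 3, against 1.62, 0.905 and 0.665 CPM in the healthy libraries. Ccr7, the lymph node homing receptor, was at 3.10, 0.976 and 0.0421 CPM in the AML and 1.15, 0.0201 and 0.0208 CPM in the healthy libraries. For both genes AML 1 was the highest library and healthy 1 the next.

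Itgb7, an integrin chain that KLF2 raises in T cells, was abundant, at 1292 ± 122 CPM in AML and 1408 ± 26.5 CPM in healthy libraries (adjusted p = 0.648). Cd69, the early activation antigen that holds S1P receptors inside the cell, was at 433, 265 and 210 CPM in AML 1, 2 and 3, against 289, 488 and 513 CPM in the healthy libraries (log2 fold change -0.51 ± 0.30, adjusted p = 0.633). Cxcr3, a chemokine receptor that rises in mouse T cells lacking KLF2, had a log2 fold change of -0.20 ± 0.10 (adjusted p = 0.584). Of the 8 trafficking genes 4 were above and 4 below 0 by fold change and 0 passed. Their median was 0.11, against 0.01 over all genes. Without AML 1 alone 0 of the 8 passed. Without AML 1 and healthy 1 together 1 passed as higher and Cd69 as lower, at -1.08 ± 0.12 (SE), with an adjusted p of 0.00201. Of all genes 3.54% passed in that fit.

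Upstream, Foxo1, the factor that keeps Klf2 switched on in resting T cells, measured 154, 117 and 110 CPM in AML 1, 2 and 3, against 142, 150 and 130 CPM in the healthy libraries, with a log2 fold change of -0.15 ± 0.13 (SE) and an adjusted p of 0.725. Among the kinases and MEF2 factors of the ERK5 route to Klf2, Mef2d had a log2 fold change of -0.20 ± 0.11 and Mef2c of 1.33 ± 0.58, at 3.54 ± 1.36 CPM in AML and 1.40 ± 1.12 CPM in healthy libraries (adjusted p = 0.623 and 0.565). Foxo3, a relative of Foxo1, was at -0.27 ± 0.17 (adjusted p = 0.640). Mapk7, which encodes ERK5, was at 36.2 ± 0.355 CPM in AML and 34.6 ± 2.43 CPM in healthy libraries. Of the 9 genes upstream of Klf2, 2 were above and 7 below 0 by fold change. Their median was -0.12, and 0 passed.

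Quiescence regulators were measured beside KLF2, and many of them restrain the cell cycle of resting lymphocytes as it does. By fold change 9 of the 22 genes were above and 13 below 0. The median was -0.13, and 0 passed over all genes. The smallest p-values belonged to Myc, a growth regulator that quiescent cells keep low, with a log2 fold change of -0.67 ± 0.10 (SE), to the antiproliferative gene Btg2 at -0.43 ± 0.10, to the cyclin gene Ccnd1 at 1.25 ± 0.37 and to Rbl2, which encodes the pocket protein p130, at 0.20 ± 0.06 (adjusted p = 0.323, 0.399, 0.457 and 0.474). Btg1 and Cdkn1b, which encodes the inhibitor p27, had log2 fold changes of -0.29 ± 0.19 and -0.23 ± 0.13 (adjusted p = 0.646 and 0.622). Cdkn1a, which encodes the inhibitor p21 and is a known KLF4 and KLF6 target, was also highest in AML 1, at 135, 37.1 and 17.7 CPM in AML 1, 2 and 3, against 107, 93.1 and 83.9 CPM in the healthy libraries. It was named after its values were seen, as it passed without AML 1, at -1.78 ± 0.29 and an adjusted p of 0.0410, beside Tob1 and Myc. Without AML 1 alone, 0.964% of all genes passed as lower. Without AML 1 and healthy 1, 6 of the 22 passed as lower, where 1.74% of all genes did. The 6 held the growth regulator Myc as well as the antiproliferative Btg2.

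Other members of the family held no called gene either. Of 20 further Kruppel-like and Sp factors 11 passed the filter on low counts, 6 of them with a fold change above 0 and 5 below. Their median was 0.01. Klf14, Sp6, Sp7 and Sp8 had 0 reads in all 6 libraries. Klf7 was above every healthy library in all AML libraries, at 17.4, 16.3 and 21.0 CPM against 14.0, 10.4 and 13.4 CPM, which gave 0.53 ± 0.17 (SE) in log2 at an adjusted p of 0.474. Klf9, a glucocorticoid-responsive factor, was at 45.6, 16.7 and 19.3 CPM in AML 1, 2 and 3, against 39.3, 37.1 and 38.3 CPM in the healthy libraries, and Klf11, the relative of KLF10, at 42.2, 19.9 and 13.1 CPM against 38.4, 34.3 and 44.6 CPM. Klf9 and Klf11 thus had AML 2 and AML 3 below every healthy library, as Klf2, Klf4, Klf6 and Klf13 did. So did Klf16, at 18.3 and 16.1 CPM in AML 2 and AML 3, against 30.5, 27.2 and 25.3 CPM in the healthy libraries. Of all tested genes 17.6% had this layout. The numbers for Klf9 and Klf11 with all libraries were -0.49 ± 0.35 and -0.64 ± 0.38 (adjusted p = 0.674 and 0.632). Both passed without AML 1, with log2 fold changes of -1.09 ± 0.11 and -1.24 ± 0.20 and adjusted p-values of 0.0100 and 0.0410. They were 2 of the 11 tested, where 0.964% of all genes passed as lower in that fit. Klf16 had a log2 fold change of -0.43 ± 0.20 with all libraries (adjusted p = 0.569).

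TGF-beta signalling genes, of which KLF10 is an early target, had a median of -0.05 over 10 genes, 5 positive and 5 negative, with 0 passed. Smad7, the inhibitory SMAD, had the smallest p-value and all AML libraries below the healthy ones, at 70.7, 57.1 and 49.1 CPM against 74.7, 74.9 and 76.1 CPM, a log2 fold change of -0.35 ± 0.13 (SE) and an adjusted p of 0.519. Tgif1, a homeodomain repressor of this pathway, also had AML 1 highest, at 69.8, 19.0 and 15.7 CPM in AML 1, 2 and 3. Its healthy libraries were at 44.4, 54.0 and 37.3 CPM. It passed without AML 1 at -1.38 ± 0.18 and an adjusted p of 0.0181, the 1 gene of the 10 to do so. Of all genes 0.964% passed as lower in that fit. Without AML 1 and healthy 1, Tgif1 and Smad7 passed as lower, where 1.74% of all genes did. Tgfbr2, the type II receptor, had a log2 fold change of -0.12 ± 0.07, Smad2 of -0.18 ± 0.13 and Smad3 of -0.10 ± 0.08 (adjusted p = 0.620, 0.673 and 0.685).

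Corepressors through which these factors act held no called gene. Ctbp1, the partner of KLF3, measured 278 ± 5.07 CPM in AML and 296 ± 14.0 CPM in healthy libraries, and Sin3b, a SIN3 scaffold of the kind KLF10 and KLF13 recruit, 151 ± 2.21 and 161 ± 8.14 CPM, with adjusted p-values of 0.683 and 0.668. The other corepressor genes named by the smallest p were Hdac2 at a log2 fold change of -0.11 ± 0.09 and Wwp1, a ubiquitin ligase of KLF proteins, at 0.14 ± 0.15. All 7 genes were tested, 2 of them with a positive fold change, and 0 passed.

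**Figure D4:**
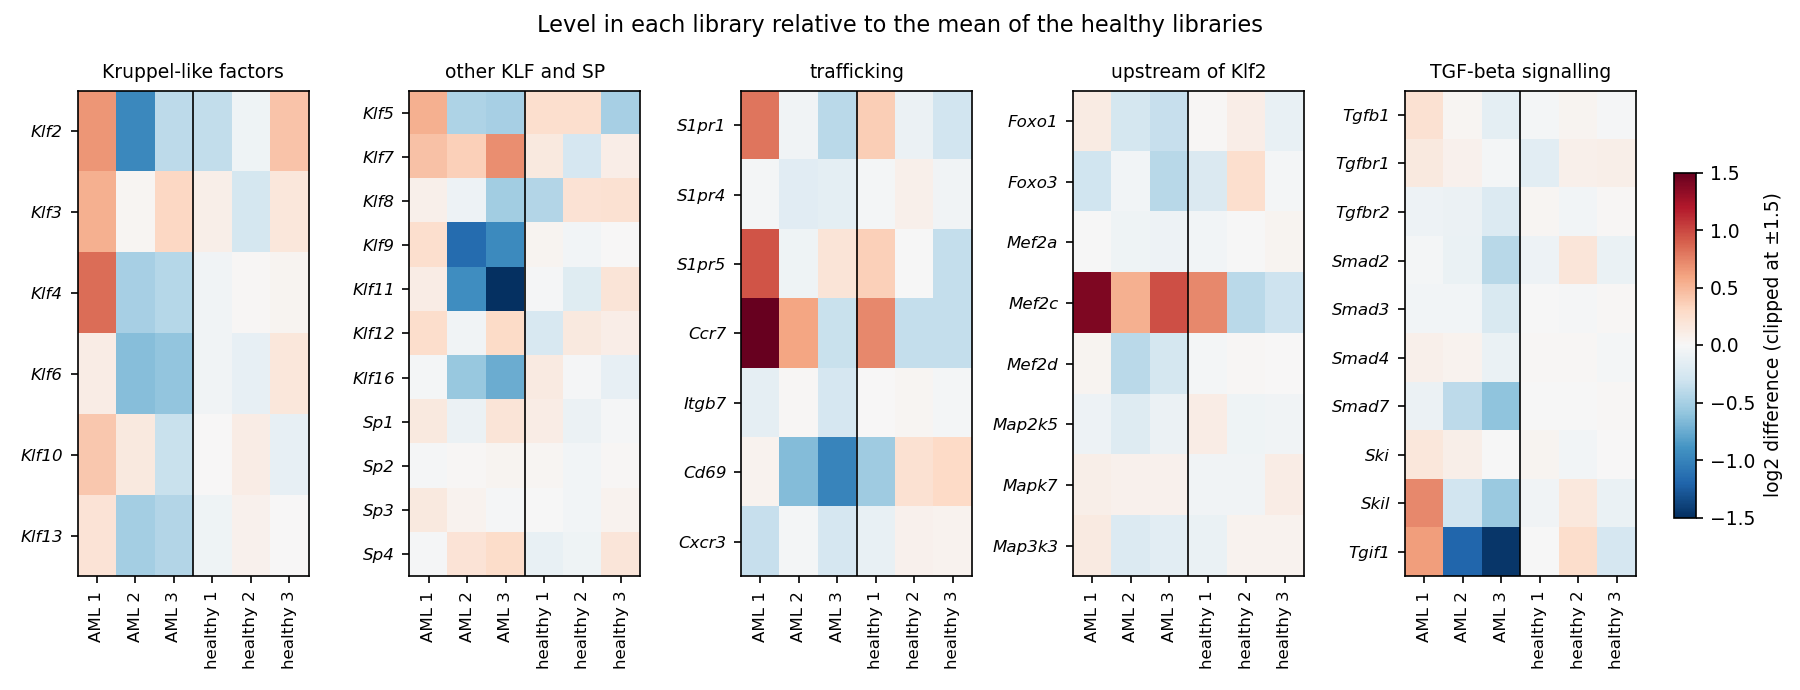
Log2 level of tested genes in each library minus its mean over the 3 healthy libraries, computed from CPM plus 1, with AML libraries left and healthy libraries right of the black line and colours clipped at 1.5. Klf2, Klf4, Klf6, Klf13, Klf9, Klf11 and Tgif1 are blue in AML 2 and AML 3 and not in AML 1, while most upstream and TGF-beta genes are pale in all libraries.

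Immediate early genes, to which Klf2, Klf4, Klf6 and Klf10 are often counted, were mostly under 0 by fold change. Of 26 tested 24 were under 0, against 48% of all genes. The median was -0.28, and 0 passed over all genes. Dusp2, a MAP kinase phosphatase, had a log2 fold change of -0.81 ± 0.12 (SE) and Dusp1 of -0.77 ± 0.18, with adjusted p-values of 0.323 and 0.399. Myc and Btg2, given above, are also on this list. Without healthy 3, 15 of the 26 were under 0. These genes did not share a single layout across libraries. Nr4a1, an orphan nuclear receptor induced by antigen receptor signals, followed the layout of Klf4, at 724, 173 and 147 CPM in AML 1, 2 and 3, against 488, 408 and 389 CPM in the healthy libraries, and Fos did not, at 678, 1061 and 1029 CPM against 581, 984 and 1447 CPM. Without AML 1, 7 of the 26 passed as lower, where 0.964% of all genes did, among them Nr4a1 at -1.42 ± 0.13 and an adjusted p of 0.00577. Without AML 1 and healthy 1, 14 of the 26 passed as lower, where 1.74% of all genes did.

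Among themselves, Klf6 and Klf13 were the most alike in profile, with a Pearson correlation of log2 CPM of 0.93 over the 6 libraries, and Klf4 and Klf13 had 0.89. Klf3 was the least alike, at 0.10 to 0.49 with the others. The points share the same 6 libraries, so these values describe the profiles and carry no test. Of 8339 other genes with a mean of at least 10 CPM, the nearest to Klf6 were Brd1, a chromatin reader, Nr1d2, the clock repressor REV-ERB beta, and Zc3h12a, the RNase regnase-1, at 0.996, 0.995 and 0.992. Nearest to Klf2 were Ubn1, R3hdm1 and Kdm6b, a histone demethylase, at 0.982, 0.982 and 0.966. For Klf4 they were Msra, Nrm and Tusc3, for Klf13 Ctps, Slc38a1 and Metap1, for Klf10 Naa40, Fam174b and Eif4e, and for Klf3 Trim25, Il18r1 and Arfip2, at 0.966 to 0.994. With each group's mean subtracted, 4 of these 18 genes were again among the 3 nearest, Brd1 and Nr1d2 for Klf6, Ctps for Klf13 and Fam174b for Klf10.

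All 6 genes are among the 9769 of the authors' deposited table, which marks none of them as changed and otherwise marks 38 genes as up and 23 as down. Its log2 fold changes run from -0.33 for Klf6 to 0.31 for Klf3 in the authors' deposited table, and its adjusted p-values from 0.697 for Klf6 to 0.994 for Klf4. In the mm10 positions of the count table, Klf2 lies on chromosome 8 from 72319062 to 72321654, Klf3 on chromosome 5 from 64803523 to 64830129, Klf4 on chromosome 4 from 55527137 to 55532475, Klf6 on chromosome 13 from 5861489 to 5870393, Klf10 on chromosome 15 from 38291464 to 38300711 and Klf13 on chromosome 7 from 63886351 to 63938915. The libraries carry no strand, so reads from a stretch that genes share cannot be told apart. Overlaps are given between the starts and ends of genes, and overlap of their exons was not examined. By GENCODE M21 on the same build, Klf3 overlaps Gm20033 and Klf13 overlaps Gm27252 and E030018B13Rik on the opposite strand and Klf3 overlaps C230096K16Rik on its own strand, and by RefSeq Klf10 overlaps Gm35248 and Klf3 overlaps Gm38457 and Gm31684. E030018B13Rik had 27 reads in all 6 libraries together, and no overlap was found for Klf2, Klf4 and Klf6 in either annotation.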

How the data were processed

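Messenger RNA of liver ILC1 was measured in 3 AML and 3 healthy libraries, grouped by their titles and matched to columns by the description field. The authors deposited raw read counts per gene and a table of their own comparison, which per the file headers gives log2 values for the fold change and the average level, a likelihood ratio as a score, p-values and adjusted p-values; the values per library the authors deposited there match RPKM computed from the counts up to a constant and were not used. Per the labels' protocols, cDNA was amplified from poly(A) RNA with a SMART-Seq kit and sequenced as single unstranded reads. Per the submitters' processing notes, bcl2fastq 2.18.0.12, STAR 2.6.0, HTSeq 0.6.0, edgeR 3.28.1 and the builds mm10 and hg19 were used, with no roles given. Positions are taken as 1-based mm10, as 62.0% of 23349 shared symbols, and 5 of the 6 members, have the start that RefSeq GRCm38.p6 gives.

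The counts were tested with edgeR 4.0.16 under R 4.3.3, by its two-sided quasi-likelihood F test, with TMM, filterByExpr at a minimum count of 10 and the group as the only term. P-values were adjusted by Benjamini-Hochberg over 12469 genes at a threshold of 0.05. Standard errors and 95% intervals come from the fit. The script was tested on simulated counts with 200 genes changed by a log2 fold change of 2. It recovered 84.0% of the changed genes that passed the filter, with 15 false calls. RPKM divides TMM-scaled CPM by the length that the count table gives for each gene. With 3 libraries a group, an exact permutation test of 1 gene cannot go below p = 0.1. A count of 3, the limit that 0 reads allow, is 0.0574 to 0.0642 CPM per library, for counting error only. No pair of libraries was alike within sampling noise. Besides all members, the rule named up to 4 genes of each pathway list by smallest p and certain genes in every case; Cdkn1a, Tgif1, Tob1, Nr4a1, Fos, Ngp, Camp, Cebpb, Cd3g and Mapk7 were named after their values were seen. Alternatives were other size factors, filters, DESeq2 1.42.0, limma-voom (limma 3.58.1), the replicate number as a block and left-out libraries. The members and lists were chosen with earlier results of these data known. The ILC1 marker Zfp683 was not analysed here, and some genes that the lists and the rule hold are counted but not reported here by name.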

Additional observations from a re-analysis of the deposited data

How the results depend on the processing

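With all libraries kept, 0 Kruppel-like factors passed under every scaling, filter and test tried. Over all genes edgeR passed 0, or 2 with no scaling and 2 with no filter on low counts, while DESeq2 passed 143. Leaving out 1 library at a time gave 0 to 147 genes over all genes and 0 to 2 members, and leaving out AML 1 and healthy 1 gave 444 genes and 2 members. The fold changes of Klf3, Klf6 and Klf13 kept their sign under all 14 alternatives. Klf2 reversed without AML 2, AML 3 or healthy 3, with left-out libraries taking it from -0.70 to 0.19. Klf4 reversed by limma-voom (-0.060), with the replicate block (-0.049), without AML 1 and without both libraries numbered 1 (-0.54), with a range of -0.52 to 0.37 over single left-out libraries. Klf10 reversed without AML 1 (-0.079) and without both libraries numbered 1 (-0.080), with a range of -0.079 to 0.28. The causes were not tested beyond the libraries left out.

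The replicate block passed 0 genes and 0 members. No label says that equal numbers mark pairs. The deviations of libraries with the same number correlated at 0.13, -0.13 and 0.25 over 12469 genes. AML 1 correlated best with healthy 2, at 0.17, AML 2 with healthy 3, at 0.20, and AML 3 with healthy 3, at 0.25. With 3 libraries a group, such correlations cannot decide whether libraries were paired. Recomputed medians of the gene lists moved by more than the spread between libraries in 37 cases and by less in 199.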
